A study of Mus musculus with 14 samples.

Results

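The 35 genes described here mark the muscle coat of the gut, its pacemaker cells and its nervous system, out of 19938 mouse genes measured. A fixed list of symbols was matched to the array rows whose annotation gives exactly that symbol, and each of the 35 genes had 1 such row. The list holds 24 smooth muscle genes (12 of the contractile apparatus, 6 of the cytoskeleton and cell junctions, 6 regulators, channels and receptors), 2 genes of interstitial cells of Cajal and 9 neural genes (7 of neurons, 2 of glia).

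Samples of mouse proximal duodenum were read on 14 Affymetrix Mouse Gene 1.0 ST arrays by their total RNA, and the deposited values are log2 signal, on which a difference of 1 is a 2-fold change. The wildtype group holds the duodenum of 3 mice. The tumor group holds 6 duodenal adenomas, each from a different mouse that is Lrig1-CreERT2/CreERT2 (Lrig1-/-), meaning that a CreERT2 insertion disrupts both Lrig1 alleles. The adjacent group holds 5 samples of normal duodenum taken beside a tumor in the same Lrig1-/- mice, so 5 of the 9 mice gave both tissues. All animals share a mixed 129S7/SvEv and C57/BL6 background and are described as age matched, with no age given in the sources used here. The insertion is present in every cell of the Lrig1-/- animals, and tumor and adjacent tissue carry the same genotype.

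The labels call the non-tumor tissue epithelium, but the smooth muscle genes Acta2, Actg2, Cnn1, Myl9 and Des lay between 9.79 and 12.79 on every non-tumor array. Cells that make smooth muscle transcripts were thus part of what was sampled, and whether they came from the muscle coat was not tested. Lrig1 itself averaged 9.03 ± 0.71 (SD, n = 3) in wildtype, 7.20 ± 0.17 (SD, n = 5) in adjacent and 8.07 ± 0.32 (SD, n = 6) in tumor tissue. Some non-tumor arrays stand apart. Wildtype 1, wildtype 3, adjacent 1 and adjacent 2 had mean pancreatic acinar marker signals of 13.04 to 14.01, against 6.54 to 6.80 on the other 4 non-tumor arrays. On tumor arrays this mean was 6.71 to 9.32, highest in tumor 1 (9.32), tumor 5 (8.31) and tumor 3 (8.03). No tumor was left out for its acinar signal. Wildtype 1 also had a mean gastric pit cell marker signal of 13.45, inside the tumor range of 12.68 to 13.88, against 6.48 to 8.99 on the remaining 7 non-tumor arrays. Fits with only the 4 acinar arrays as non-tumor samples, without them, and without wildtype 1 are given below.

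Smooth muscle of the gut wall forms a thin muscularis mucosae under the epithelium and a thick outer coat of circular and longitudinal layers. Its contractile genes are switched on largely by serum response factor, which binds the CArG box in DNA and recruits the coactivator myocardin, encoded by Myocd. Enteric neurons and glia form plexuses between and beneath these layers, and interstitial cells of Cajal, marked by the receptor tyrosine kinase Kit and the chloride channel Ano1, generate the slow waves that pace contraction. Lrig1 is a transmembrane inhibitor of ErbB receptors known from intestinal stem cells, and subsets of interstitial cells of Cajal also make it.

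Promoter sequences were examined because the contractile genes share this regulator. Of the 35 genes, 28 had a promoter entry in the RefSeq table (GRCm38.p6). The 7 without one, which could not be searched, were Actg2, Myh11, Tagln, Myocd, Rbpms, Stmn2 and Sox10. The 250 bases before the transcription start were searched for the CArG box, a palindromic motif of 10 bases that reads the same on both strands. An exact box stood in 482 of 32851 mouse promoter windows of this length (1.47%), and a box with at most 1 mismatch in 6117 (18.6%). Among the 19 muscle genes with a window, 2 had an exact box (Myl9 and Ldb3) and 8 had a box with at most 1 mismatch, namely Acta2, Myl9, Cald1, Tpm1, Lmod1, Flna, Ldb3 and Casq2. Of the 7 neural genes with a window, Elavl4 had an exact box and Gfap a box with 1 mismatch. A gene was counted when any of its windows held a box, whereas the percentages are shares of windows. Elavl4 had 4 windows, and Cald1, Ldb3 and Kit had 2 each. The exact box of Elavl4 is 1 site, seen in 2 overlapping windows. A match is a description of the letters and not a measured binding site.
The windows of 4 genes are shown 5′ to 3′ on the gene's strand, with the boxes in capitals. Acta2 is the smooth muscle actin that, like most contractile genes, was lowest in tumors 4 and 6, and its window (chr19:34255374-34255623, minus strand) holds 2 boxes with 1 mismatch each, starting 84 and 34 bases before the start. Myl9, a contractile gene of the same kind, has an exact box 161 bases before the start and a box with 1 mismatch 99 bases before it (chr2:156775214-156775463, plus strand). Ldb3 fell in tumors where Acta2 and Myl9 did not pass the test, and has an exact box 35 bases before the start (chr14:34588682-34588931, minus strand). Ano1, which rose most of the 35 genes, has no box with up to 1 mismatch in its window (chr7:144738574-144738823, minus strand).
Acta2: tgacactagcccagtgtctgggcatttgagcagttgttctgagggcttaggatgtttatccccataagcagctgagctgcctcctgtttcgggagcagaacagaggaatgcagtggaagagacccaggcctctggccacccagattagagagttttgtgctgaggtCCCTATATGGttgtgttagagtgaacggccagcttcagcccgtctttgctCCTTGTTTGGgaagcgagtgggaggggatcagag
Myl9: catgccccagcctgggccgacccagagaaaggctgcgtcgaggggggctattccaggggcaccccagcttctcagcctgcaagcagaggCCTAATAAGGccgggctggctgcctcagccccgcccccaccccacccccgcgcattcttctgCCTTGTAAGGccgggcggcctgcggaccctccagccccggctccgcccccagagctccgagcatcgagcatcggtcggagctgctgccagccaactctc
Ldb3: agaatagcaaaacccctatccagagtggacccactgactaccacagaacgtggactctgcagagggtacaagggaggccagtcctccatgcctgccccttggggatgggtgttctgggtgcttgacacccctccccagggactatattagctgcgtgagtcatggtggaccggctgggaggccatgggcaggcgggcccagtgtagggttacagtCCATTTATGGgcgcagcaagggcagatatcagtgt
Ano1: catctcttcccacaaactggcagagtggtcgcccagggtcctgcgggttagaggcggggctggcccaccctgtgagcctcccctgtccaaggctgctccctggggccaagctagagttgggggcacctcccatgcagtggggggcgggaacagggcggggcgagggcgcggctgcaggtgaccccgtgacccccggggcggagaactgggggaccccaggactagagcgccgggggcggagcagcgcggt

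The first question was whether tumors differ from the adjacent duodenum of the same genotype in these genes. Of the 24 muscle genes, 1 rose (Chrm3), 2 fell (Mylk and Ldb3) and 21 did not pass the test, while over all genes 31.7% passed, 19.1% higher and 12.6% lower (limma, adjusted p under 0.05). The muscle count was 5 without tumor 6, when Tpm1 and Rbpms were also called higher, and also 5 without wildtype 3. Fitted differences were above 0 for 7 muscle genes and below 0 for 17, beside 11993 above and 7945 below over all genes. The muscle median was -0.22 on the log2 scale, against 0.04 over all genes. Beside 6.84% of all genes, 2 muscle genes (Mylk and Ldb3) had every tumor below every adjacent sample, and beside 10.3% of all genes none had every tumor above; of the interstitial genes Ano1 had. In bulk tissue a smaller share of muscle cells, less RNA per muscle cell and less RNA from other cells cannot be told apart. Wildtype 1 was the highest wildtype array for 19 of the 24 muscle genes. It was the lowest for 3, among them Mylk (10.12) and Ldb3 (9.21). Which cells made the Mylk and Ldb3 signals was not tested.

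As a list, the muscle genes differed widely between individual tumors. The mean log2 signal of the 24 genes was 9.68 in tumor 1, 9.31 in tumor 2, 9.90 in tumor 3, 8.35 in tumor 4, 10.02 in tumor 5 and 8.62 in tumor 6. It was 9.98, 9.63 and 9.29 in wildtype 1 to 3, and 8.85, 9.55, 9.82, 9.66 and 9.67 in adjacent 1 to 5. Tumors 4 and 6 lay below every non-tumor array, tumors 1, 2 and 3 lay among them, and tumor 5 had the highest mean of the 14. Tumor 4 was the lowest tumor for 15 of the 24 genes and tumor 6 for 8, and these were the 2 lowest tumors for 18 of them. The exceptions were Smtn, Cald1, Flna, Ldb3, Rbpms and Chrm3. Tumor 5 was the highest tumor for 15 genes. Among adjacent samples, adjacent 1 was the lowest for 21 genes, and wildtype 3 was the lowest wildtype array for 20.

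**Figure D1:**
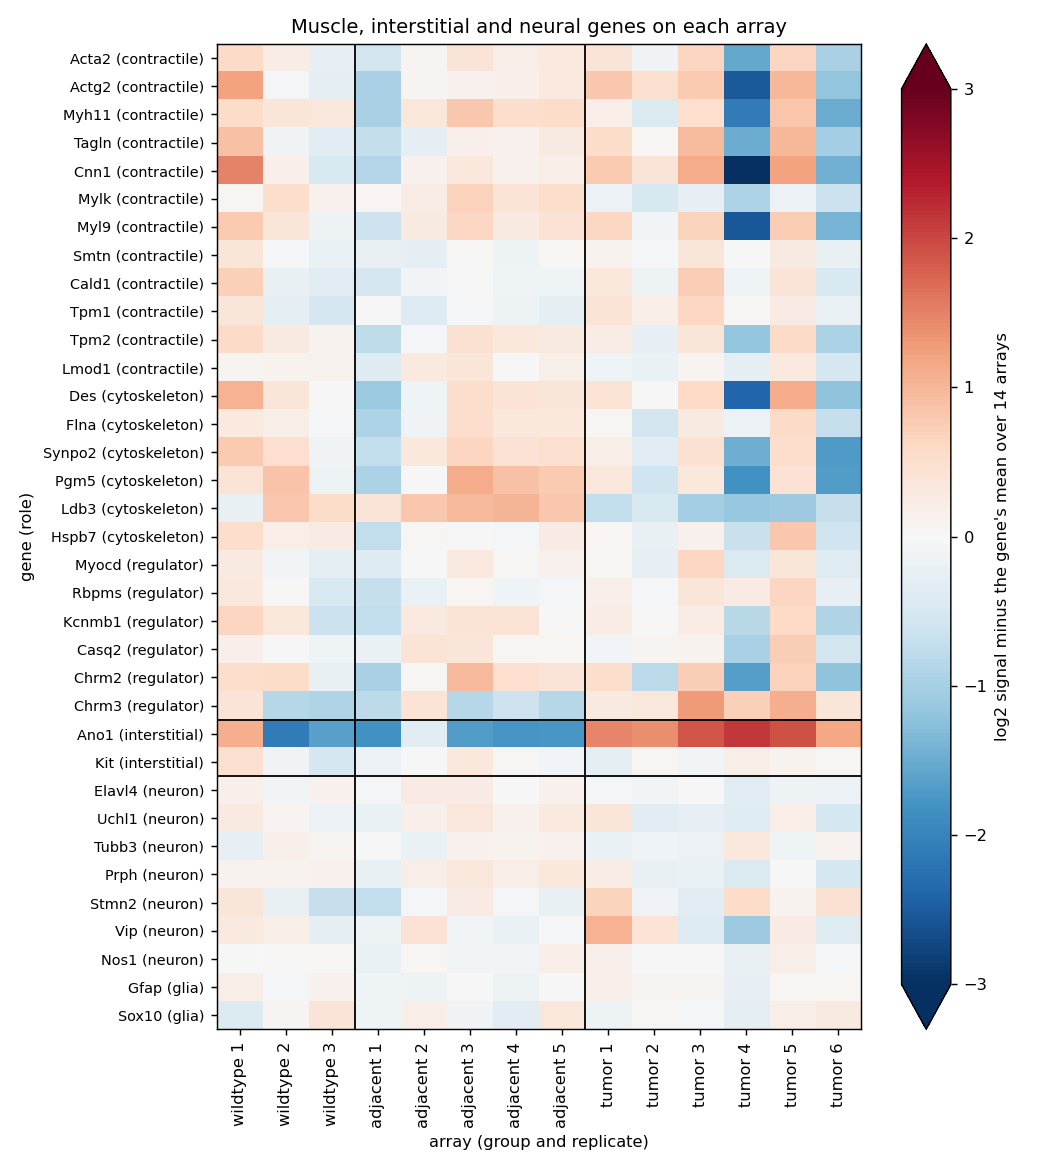
Heat map of the 35 genes (vertical axis, with each gene's role) on the 14 arrays (horizontal axis); colour is the log2 signal minus that gene's mean over all arrays, red above and blue below, with colours saturating at 3. Tumors 4 and 6 are blue over most contractile and cytoskeletal genes, Ano1 is red in all 6 tumors and wildtype 1, Ldb3 is blue in all 6 tumors, and most neural genes stay pale.

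Tumors 4 and 6 were also the 2 lowest tumors in 4 of the 15 further lists. Their means were 8.31 and 8.30 for other smooth muscle genes (the other 4 tumors at 8.52 to 9.0), 7.04 and 7.29 for other enteric neuron genes (7.31 to 7.51), 7.62 and 7.68 for other genes of interstitial cells of Cajal (7.75 to 8.02), and 7.40 and 7.52 for striated muscle genes (7.54 to 7.70). Both lay inside the range of the non-tumor arrays for other smooth muscle (8.20 to 8.76) and striated muscle genes (7.36 to 7.66). For other enteric neuron genes tumor 4 lay below that range (7.27 to 7.66) and tumor 6 inside it. For other genes of interstitial cells of Cajal both lay below it (7.91 to 8.46), as did tumors 1 and 2. Fibroblast, mast cell and enterocyte lists did not place them lowest together. Their mean fibroblast and matrix signals were 9.14 and 8.91, with the other 4 tumors at 8.62 to 8.94. Mean mast cell marker signals were 8.14 and 8.10 against 7.55 to 8.38, and mean enterocyte marker signals 11.33 and 11.22 against 10.94 to 11.35.

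Within mice, the tumor was compared with the adjacent tissue of the same animal. Of the 24 muscle genes, 22 were higher in tumor 2 than in adjacent 1, with a median difference of 0.43. In tumor 3 against adjacent 2, 19 were higher (median 0.48), and in tumor 5 against adjacent 4, 21 were higher (median 0.41). In tumor 4 against adjacent 3, 21 were lower with a median of -1.62, and Cnn1 differed most, at -3.47. In tumor 6 against adjacent 5, 22 were lower with a median of -1.20, and Pgm5 differed most, at -2.46. The medians over all genes in the same 5 pairs lay between 0.0007 and 0.15. Of all 19938 genes, 11680, 13528 and 11000 were higher in tumors 2, 3 and 5 than in their adjacent tissue. In tumors 4 and 6, 9749 and 9952 were lower. The direction for muscle genes thus differed between the mice, 3 one way and 2 the other. The pairs of tumors 2 and 3 use adjacent 1 and adjacent 2, with mean acinar marker signals of 13.04 and 14.01. These were 6.54 to 6.74 in adjacent 3 to 5. Adjacent 1 was also the lowest adjacent sample for 21 of the 24 genes. What part this had in the direction was not tested.

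**Figure D2:**
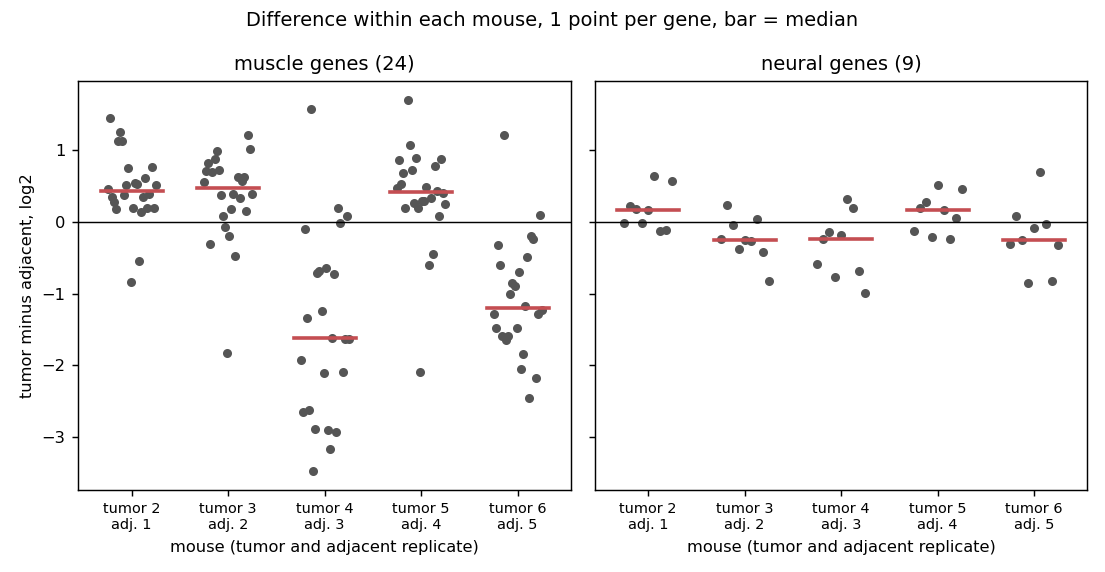
Log2 signal in the tumor minus that in the adjacent tissue of the same mouse (vertical axis) for 24 muscle genes (left) and 9 neural genes (right) in 5 mice (horizontal axis); each point is a gene and each bar the median. Muscle medians are 0.43, 0.48 and 0.41 in 3 mice and -1.62 and -1.20 in those of tumors 4 and 6, while neural medians stay between -0.26 and 0.16.

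Among contractile genes, Cnn1 (calponin, an actin-binding regulator of contraction) varied most in tumors. It read 12.17, 10.82 and 10.22 in wildtype 1 to 3, 9.79, 10.80, 10.99, 10.80 and 10.87 in adjacent 1 to 5, and in tumors 7.52 at the lowest, 11.25 at the median and 11.87 at the highest. Tumors 4 and 6 were the low ones, at 7.52 and 9.22, while the other 4 tumors exceeded all adjacent samples. The fitted difference between tumor and adjacent tissue was -0.23 ± 0.61 (SE), with a 95% interval from -1.54 to 1.07 and an adjusted p of 0.839 (limma).
Acta2, smooth muscle alpha-actin, read 12.79, 12.44 and 11.97 in wildtype and 11.66, 12.31, 12.61, 12.39 and 12.52 in adjacent tissue. Its tumor values ran from 10.68 through a median of 12.37 to 12.87. The groups overlapped, and the difference was -0.27 ± 0.33 (SE; 95% interval -0.97 to 0.43; limma adjusted p = 0.62).
Actg2, the gamma-actin of visceral muscle, ran from 8.67 in tumor 4 to 12.18 in tumor 5 and from 10.21 to 11.48 in adjacent samples. Its difference was -0.10 ± 0.51 (SE; 95% interval -1.18 to 0.98; limma adjusted p = 0.921). Myh11, the smooth muscle myosin heavy chain, read 7.99 in tumor 4, 8.60 in tumor 6 and 9.65 to 10.91 in the other tumors, against 9.11 to 10.89 in adjacent tissue. The Myh11 difference was -0.71 ± 0.43 (SE), with an adjusted p of 0.255 by limma. Myl9, a regulatory myosin light chain, ran from 9.12 to 12.41 in tumors and from 11.04 to 12.28 in adjacent samples (difference -0.59 ± 0.47, SE; limma adjusted p = 0.405). With tumors 4 and 6 far from the others, the interval for Cnn1 holds a 2-fold change in either direction.

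Mylk, the kinase that phosphorylates myosin light chains to start contraction, was low in all 6 tumors. It read 10.12, 10.60 and 10.19 in wildtype, 10.14, 10.30, 10.77, 10.49 and 10.60 in adjacent tissue, and 9.15 at the lowest, 9.70 at the median and 9.90 at the highest in tumors. Every tumor lay below every non-tumor array, which held for tumors 1, 2, 3 and 5 as well as for 4 and 6. Mylk fell by 0.85 ± 0.14 (SE) on the log2 scale from adjacent tissue, 1.8-fold, with an adjusted p of 0.000347 by limma, and was lower in 5 of 5 mice.
The remaining contractile genes did not pass. Tagln, the actin-bundling protein transgelin, ran from 8.11 to 10.59 in tumors and from 8.89 to 9.86 in adjacent tissue (difference 0.06 ± 0.38, SE; limma adjusted p = 0.941). Tpm2, a beta-tropomyosin, ran from 7.55 to 9.29 in tumors and from 7.96 to 9.17 in adjacent tissue, and Lmod1, an actin nucleator of smooth muscle, from 7.32 to 8.14 and from 7.46 to 8.19. Both had tumors 4 and 6 lowest. Cald1, the actin-binding protein caldesmon, ran from 8.45 to 9.64 in tumors and from 8.40 to 8.89 in adjacent tissue. Tpm1, an alpha-tropomyosin, was higher in 5 of 5 tumors than in the adjacent tissue, by 0.38 ± 0.14 (SE), at an adjusted p of 0.0534 (limma). Smtn, which encodes smoothelin, had the smallest spread among the tumors of any muscle gene (SD 0.21, n = 6).

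Of the 6 cytoskeletal genes, Ldb3 fell and the other 5 did not pass. Ldb3 encodes a Z-disc protein of the PDZ and LIM family best known from striated muscle, and the platform has 1 row for it. It read 9.21, 10.24 and 9.99 in wildtype, 9.82, 10.23, 10.40, 10.45 and 10.23 in adjacent tissue, and 8.29, 8.55 and 8.98 at the lowest, median and highest in tumors. No tumor reached any non-tumor array. Ldb3 averaged 8.58 ± 0.27 (SD, n = 6) in tumors and 10.23 ± 0.25 (SD, n = 5) in adjacent tissue. It fell by 1.66 ± 0.17 (SE) on the log2 scale, 3.16-fold, with an adjusted p of 5.35e-06 by limma, in 5 of 5 mice. Tumor 4 was the lowest tumor for Ldb3, at 8.29, but tumor 6, at 8.75, was not among the 2 lowest, unlike for most muscle genes.
Des, the intermediate filament desmin, read 8.68 in tumor 4, 9.83 in tumor 6 and 11.04 to 12.16 in the other tumors, against 9.92 to 11.56 in adjacent tissue (difference -0.29 ± 0.48, SE; limma adjusted p = 0.726). Pgm5, a protein of adherens-type junctions of muscle, ran from 6.82 to 9.08 in tumors and from 7.70 to 9.76 in adjacent samples. Its difference was -0.92 ± 0.43 (SE), with a 95% interval from -1.85 to 0.01 and an adjusted p of 0.129 (limma). Synpo2, an actin-binding protein of muscle, differed by -0.65 ± 0.36 (SE; limma adjusted p = 0.208). Flna, a filamin made by many cell types, ran from 9.62 to 10.89 in tumors and from 9.40 to 10.85 in adjacent samples. Hspb7, a small heat shock protein of muscle, ran from 6.91 to 8.40 in tumors and from 6.85 to 7.83 in adjacent tissue.

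Among regulators and receptors, the muscarinic acetylcholine receptors Chrm2 and Chrm3 differed from each other. Chrm2, which in gut muscle couples to inhibition of adenylate cyclase, followed the contractile genes, with 6.65 in tumor 4, 7.09 in tumor 6 and 7.50 to 9.04 in the other tumors, against 7.32 to 9.28 in adjacent tissue. Chrm3, which triggers contraction in muscle and secretion in epithelia and glands, did not. It read 8.81, 7.56 and 7.52 in wildtype, 7.63, 8.83, 7.55, 7.81 and 7.57 in adjacent tissue, and 8.68, 8.95 and 9.70 at the lowest, median and highest in tumors. All 6 tumors were above every non-tumor array except wildtype 1 and adjacent 2, whose values lay within the tumor range. Chrm3 rose by 1.24 ± 0.23 (SE), 2.36-fold, with an adjusted p of 0.000713 by limma, in 5 of 5 mice.
Myocd, the coactivator itself, was dim throughout, at 6.85 to 7.91 in tumors, 6.91 to 7.58 in adjacent tissue and 6.99 to 7.56 in wildtype. Rbpms, an RNA-binding splicing regulator of smooth muscle, differed by 0.39 ± 0.15 (SE; limma adjusted p = 0.0639). Kcnmb1, the beta subunit of the calcium-activated potassium channel, ran from 7.57 to 9.07 in tumors and from 7.72 to 8.87 in adjacent tissue. Casq2, a calcium-storing protein of the sarcoplasmic reticulum, ran from 5.71 to 7.41 in tumors and from 6.48 to 7.10 in adjacent tissue.

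The 2 interstitial cell genes parted. Ano1 encodes the calcium-activated chloride channel that carries the pacemaker current and is also made by secretory epithelia. It read 10.45, 7.26 and 7.72 in wildtype, 7.54, 9.04, 7.67, 7.58 and 7.60 in adjacent tissue, and 10.51, 11.03 and 11.48 at the lowest, median and highest in tumors. All 6 tumors were above all 8 non-tumor arrays, with wildtype 1 next below them and adjacent 2 after it. Ano1 averaged 11.01 ± 0.37 (SD, n = 6) in tumors and 7.88 ± 0.65 (SD, n = 5) in adjacent tissue. It rose by 3.14 ± 0.38 (SE), 8.79-fold, with an adjusted p of 2.5e-05 by limma, in 5 of 5 mice.
Kit, the stem cell factor receptor of interstitial cells of Cajal and of mast cells, read 8.81, 8.22 and 7.84 in wildtype, 8.18, 8.34, 8.66, 8.37 and 8.27 in adjacent tissue, and 8.08, 8.39 and 8.51 in tumors at the lowest, median and highest. The groups overlapped. The difference was 0.00 ± 0.12 (SE), with a 95% interval from -0.26 to 0.26 and an adjusted p of 0.999 (limma).
Of 10 mast cell markers, 7 rose in tumors against adjacent tissue and none fell (70%, beside 19.1% of all genes higher). Their mean signal was 7.55 to 8.38 in tumors, 5.89 to 6.78 in adjacent tissue and 7.76, 6.07 and 5.95 in wildtype 1 to 3. Wildtype 1 thus lay inside the tumor range. Of 8 gastric pit cell genes, all 8 rose (100%, beside the same 19.1%). Mean pit signals were 12.68 to 13.88 in tumors, 6.48 to 8.99 in adjacent tissue and 13.45, 6.98 and 7.86 in wildtype 1 to 3. The part of mast cells in the Kit signal, and of pit-type epithelium in the Ano1 and Chrm3 signals, was not tested.

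**Figure D3:**
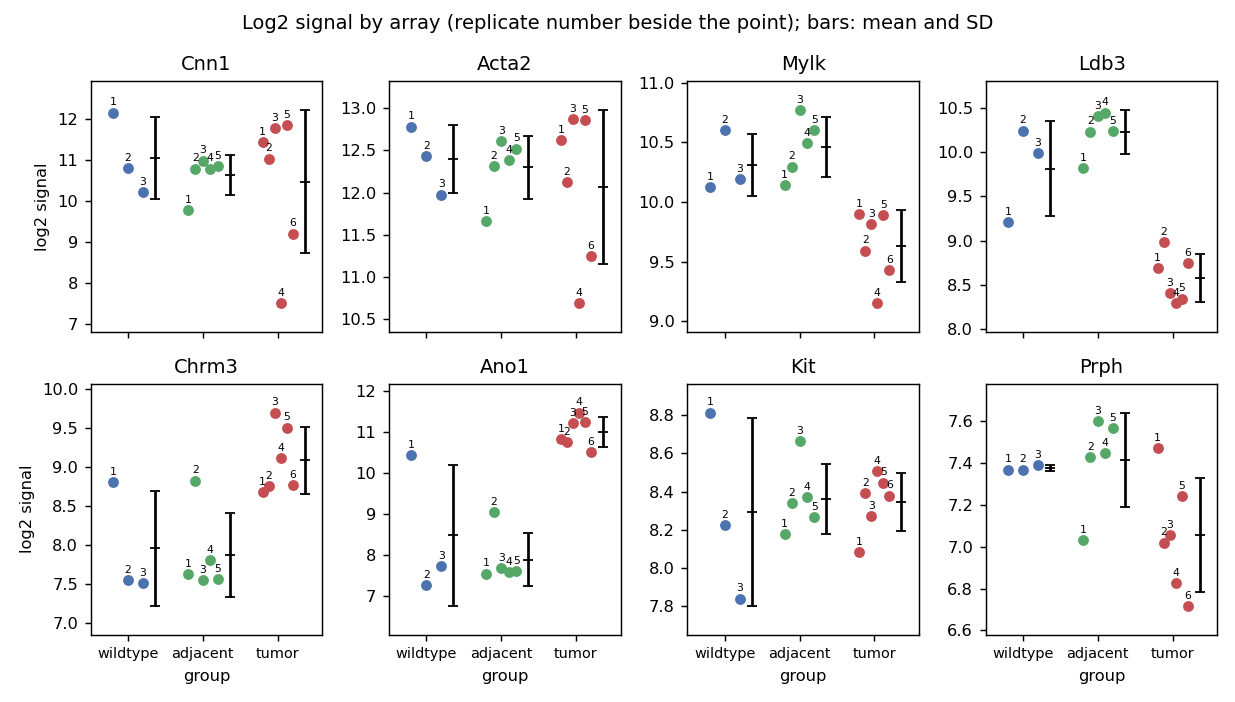
Log2 signal (vertical axis, own scale per panel) of 8 genes by group (horizontal axis); points are arrays with their replicate number, and black bars give mean and SD. Cnn1 and Acta2 scatter over all groups with tumors 4 and 6 low, Mylk and Ldb3 are below all non-tumor arrays in tumors, Ano1 is above them, and Kit overlaps.

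The mean of the 9 neural genes was dim and stayed within a narrow range, although Vip and Stmn2 varied more. The mean log2 signal was 7.02, 6.98 and 6.91 in wildtype 1 to 3, 6.74, 7.04, 7.05, 6.89 and 7.07 in adjacent 1 to 5, and 7.19, 6.91, 6.80, 6.71, 7.01 and 6.85 in tumors 1 to 6. Of the 9 genes, 2 fell in tumors against adjacent tissue (Prph and Elavl4), none rose and 7 did not pass, beside the 12.6% of all genes that were lower. The neural count was 0 without adjacent 3, adjacent 5 or tumor 6, and 1 without adjacent 2. It was also 1 without tumor 4, when Gfap alone was called, as higher.
Prph, a neuronal intermediate filament, read 7.37, 7.37 and 7.39 in wildtype, 7.03, 7.43, 7.60, 7.45 and 7.57 in adjacent tissue, and 6.72, 7.04 and 7.47 at the lowest, median and highest in tumors. The groups overlapped. Prph fell by 0.39 ± 0.12 (SE) on the log2 scale, with an adjusted p of 0.021 by limma, and was lower in 5 of 5 mice.
Elavl4, an RNA-binding protein of postmitotic neurons, read 6.04, 5.81 and 6.03 in wildtype, 5.84, 6.15, 6.15, 5.89 and 6.02 in adjacent tissue, and 5.57 to 5.91 in tumors around a median of 5.79. No array reached log2 7, and the groups overlapped. Elavl4 fell by 0.24 ± 0.08 (SE), with an adjusted p of 0.0263 by limma. With mouse as a fixed paired block the adjusted p was 0.0878, so that call was lost, and the count of neural genes called was 1.
Uchl1, a neuronal ubiquitin hydrolase, ran from 6.94 to 7.85 in tumors and from 7.28 to 7.81 in adjacent tissue (difference -0.33 ± 0.14, SE; limma adjusted p = 0.0905). Stmn2, a microtubule regulator of growing axons, ran from 7.34 to 8.32 in tumors and from 6.93 to 7.89 in adjacent tissue (difference 0.37 ± 0.18, SE; limma adjusted p = 0.154).
Vip, a peptide of inhibitory motor and secretomotor neurons, varied most among neural genes in tumors, from 5.99 in tumor 4 to 8.11 in tumor 1. Its difference was -0.08 ± 0.25 (SE; limma adjusted p = 0.867). Tubb3, the neuronal beta-tubulin, ran from 5.81 to 6.33 in tumors and from 5.81 to 6.15 in adjacent tissue. Nos1, the neuronal nitric oxide synthase of inhibitory motor neurons, ran from 6.77 to 7.17 in tumors and from 6.80 to 7.19 in adjacent tissue. The glial genes Sox10, a transcription factor, and Gfap, an intermediate filament, differed by 0.01 and 0.11 and did not pass (limma adjusted p = 0.972 and 0.282).
Several neural genes are shared with hormone-producing epithelial cells. Of 14 enteroendocrine genes, 7 fell and 1 rose in tumors (57.1%, beside 31.7% of all genes). Their mean signals were 7.60 to 8.65 in tumors and 8.90 to 9.01 in adjacent tissue. The part of these cells in the Prph and Elavl4 differences was not tested.

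Muscle and neural genes were then set side by side on each array. The muscle mean minus the neural mean was 2.97, 2.65 and 2.37 in wildtype 1 to 3 and 2.11, 2.51, 2.77, 2.76 and 2.61 in adjacent 1 to 5. In tumors 1 to 6 it was 2.50, 2.40, 3.10, 1.64, 3.0 and 1.77. Tumors 4 and 6 had the 2 lowest values of the 14 arrays, tumor 3 the highest. These values show only how the lists moved relative to each other between arrays, since levels of different probes cannot be compared. The median SD over muscle genes was 0.45 in wildtype (n = 3), 0.44 in adjacent (n = 5) and 0.60 in tumor samples (n = 6), and over neural genes 0.22, 0.21 and 0.21. The neural means, 6.71 to 7.19, lay near or below the array medians of 7.11 to 7.29, and changes in such dim signals may be hidden. The smaller neural SD therefore does not show that neural content was steadier than muscle content.
Within the mouse of tumor 4 and adjacent 3, 7 of 9 neural genes were lower in the tumor with a median of -0.24, beside the muscle median of -1.62. In the mouse of tumor 6 and adjacent 5, 7 of 9 were lower with a median of -0.25, beside -1.20 for muscle. The mouse of tumor 3 and adjacent 2 also had 7 of 9 neural genes lower, with a median of -0.26, while its muscle median was 0.48.

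**Figure D4:**
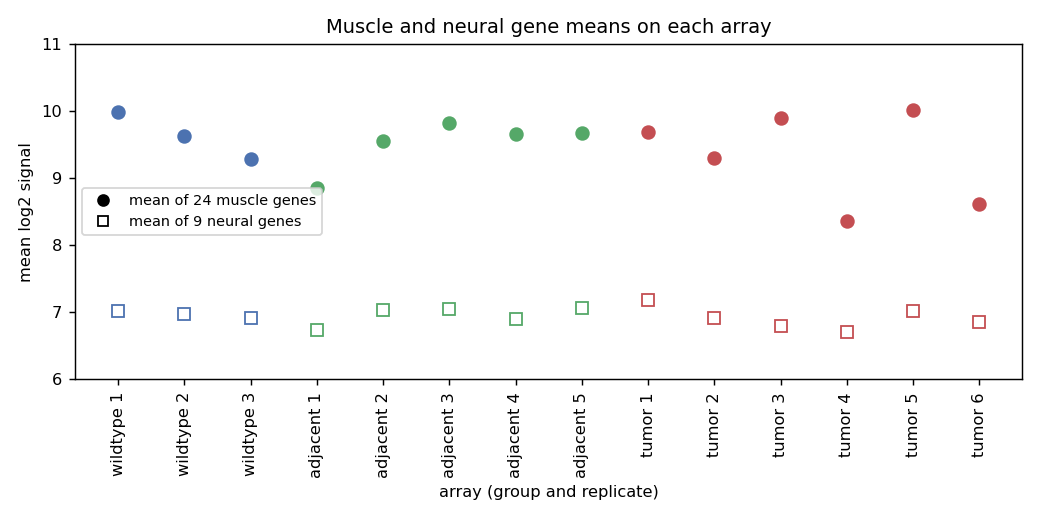
Mean log2 signal (vertical axis) of the 24 muscle genes (filled circles) and 9 neural genes (open squares) on each of 14 arrays (horizontal axis; blue wildtype, green adjacent, red tumor). Muscle means run from 8.35 in tumor 4 to 10.02 in tumor 5, and neural means from 6.71 to 7.19.

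Further genes of the same tissues were taken from lists compiled by cell type. Of 30 further smooth muscle genes, 6 rose in tumors against adjacent tissue, none fell and 24 did not pass, with a median difference of 0.01. The share that rose, 20%, is near the 19.1% of all genes. The largest were Fhl1 (1.69 ± 0.46, SE; adjusted p = 0.0114), Pdlim7 (1.52 ± 0.16, SE; adjusted p = 5.86e-06), Actn1 (1.34 ± 0.12, SE; adjusted p = 2.32e-06) and Sorbs2 (1.26 ± 0.23, SE; adjusted p = 0.000651), all by limma. These encode LIM, actinin and sorbin-family proteins of the actin cytoskeleton, and epithelial cells also make several of them. Srf, the serum response factor gene, differed by 0.09 (limma adjusted p = 0.381).
Of 29 further enteric neuron genes, 4 rose and 4 fell, with a median of -0.04. The share that passed, 27.6%, is below the 31.7% of all genes. Ret, the receptor of glial cell line-derived neurotrophic factor, rose by 1.88 ± 0.16 (SE; limma adjusted p = 1.88e-06). The neuropeptide gene Gal fell by 2.02 ± 0.73 (SE; limma adjusted p = 0.0468), and Ddc, an enzyme of serotonin and dopamine synthesis also found in endocrine and absorptive cells, fell by 1.48 ± 0.18 (SE; limma adjusted p = 2.67e-05).
Of 9 further glial genes, 2 rose and 1 fell (33.3%, near the 31.7% of all genes), with a median of -0.08. S100b, a calcium-binding protein of glia, rose by 1.04 ± 0.11 (SE; limma adjusted p = 7e-06), and Gpm6b, a membrane proteolipid, by 1.03 ± 0.17 (SE; limma adjusted p = 0.000347). Erbb3, also an epithelial receptor, fell by 0.35 ± 0.11 (SE; limma adjusted p = 0.0272).
Of 7 further genes of interstitial cells of Cajal, 2 rose and 3 fell (71.4%, beside 31.7% of all genes), with a median of -0.13. Adgrd1, an adhesion G protein-coupled receptor, fell by 2.92 ± 0.39 (SE; limma adjusted p = 5.49e-05), and the transcription factor gene Etv1 rose by 0.63 ± 0.17 (SE; limma adjusted p = 0.00985). The members of this list therefore moved in both directions, as Ano1 and Kit differed from each other.

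Tumors were next set against wildtype duodenum, where genotype and tissue differ together. These values share the tumor arrays with the comparison above. Of the 24 muscle genes, Chrm3 again rose, Mylk and Ldb3 again fell and 21 did not pass, while 14.1% of all genes passed, 9.65% higher and 4.48% lower. None of the 9 neural genes passed by limma or had an unadjusted p under 0.05, and 1 (Stmn2) passed with array weights. Every tumor lay below every wildtype array for Mylk and Ldb3 (5.04% of all genes) and above for Ano1 (8.53% of all genes). Median differences were -0.36 for muscle, -0.07 for neural genes and -0.0023 over all genes.
Ano1 rose by 2.53 ± 0.54 (SE), 5.78-fold, with an adjusted p of 0.00753 by limma and no overlap. Ldb3 fell by 1.24 ± 0.23 (SE) on the log2 scale, 2.35-fold, at an adjusted p of 0.00379 by limma, again without overlap. Mylk fell by 0.68 ± 0.20 (SE; limma adjusted p = 0.0368) without overlap, and Chrm3 rose by 1.13 ± 0.32 (SE; limma adjusted p = 0.0305), with wildtype 1 inside the tumor range. Kit differed by 0.05 ± 0.17 (SE; limma adjusted p = 0.891).
Wildtype 1, the array with high gastric pit markers, was nearest to the tumors for Ano1, Ldb3, Mylk and Chrm3. Without it, Ano1 rose by 3.52 ± 0.36 (SE; limma adjusted p = 2.17e-05), Ldb3 fell by 1.54 ± 0.22 (SE; limma adjusted p = 0.00027), and Chrm3 rose by 1.56 ± 0.31 (SE; limma adjusted p = 0.00286). Without wildtype 2, the Ano1 difference was 1.92 ± 0.56 (SE) and missed the threshold at an adjusted p of 0.066, and without wildtype 3 it was 2.15 at an adjusted p of 0.061 (limma). Ldb3 passed in both cases, at adjusted p of 0.039 and 0.0298 (limma). Mylk and Chrm3 did not, at adjusted p of 0.221 and 0.179 without wildtype 2 and of 0.0904 and 0.182 without wildtype 3 (limma). Mylk was also lost without tumor 2 (limma adjusted p = 0.0508) or adjacent 4 (limma adjusted p = 0.0526), and Chrm3 without tumor 3 (limma adjusted p = 0.0517), tumor 4 (limma adjusted p = 0.0557) or tumor 5 (limma adjusted p = 0.055). The muscle count over all 24 genes was 1 without wildtype 2 or wildtype 3.

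**Figure D5:**
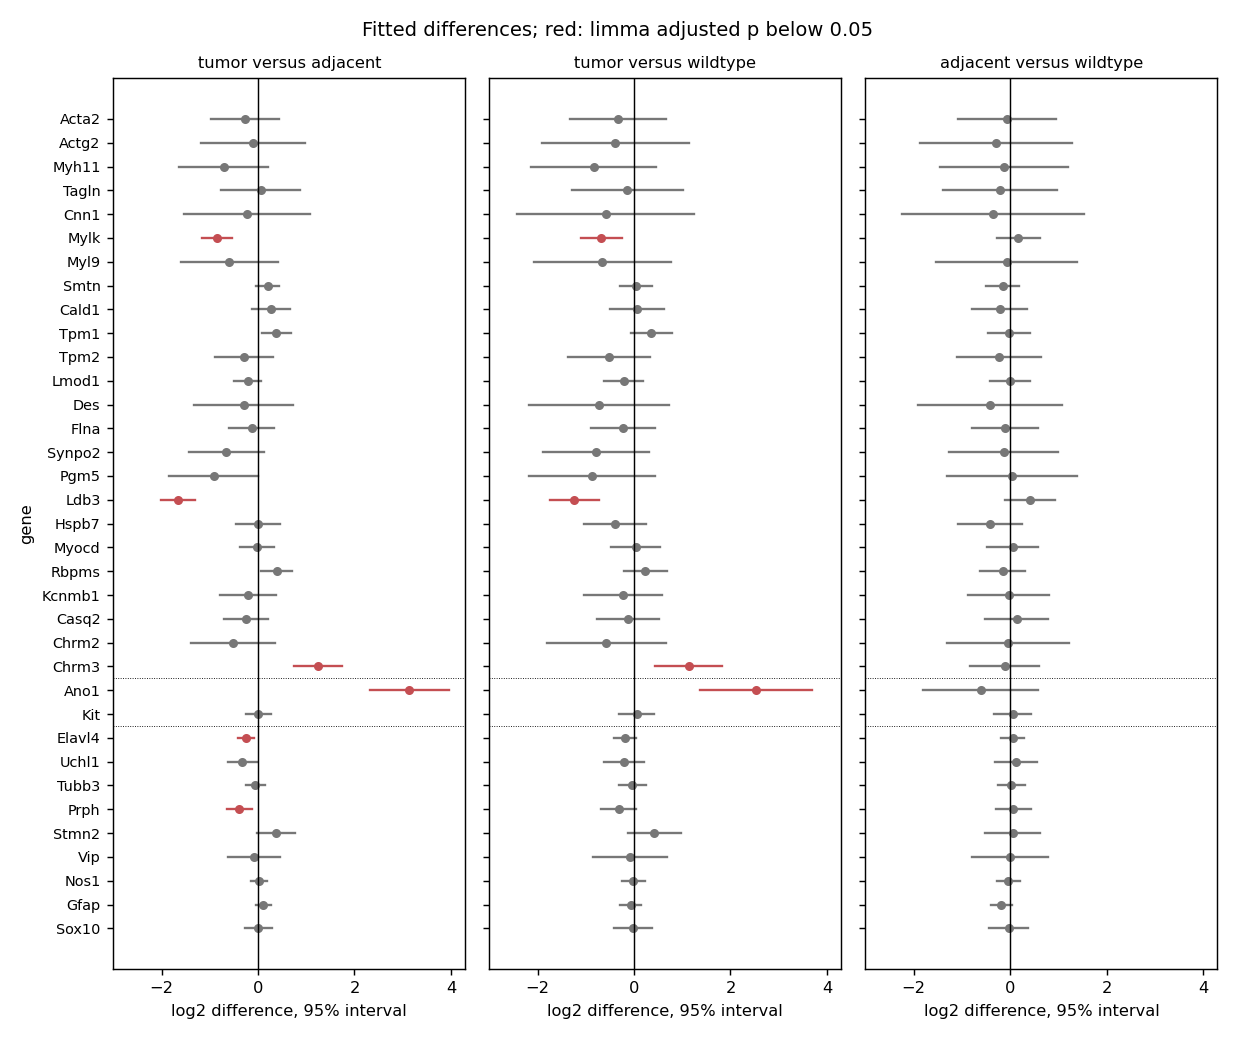
Fitted log2 differences (horizontal axes) with 95% intervals for the 35 genes (vertical axis) in 3 comparisons; red marks a limma adjusted p below 0.05 and grey the rest. Ano1 and Chrm3 are red to the right and Ldb3 and Mylk red to the left in both tumor comparisons, Prph and Elavl4 are red only against adjacent tissue, and no gene is red in adjacent tissue against wildtype.

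The 5 pairs and the wildtype mice fall under 2 first letters of the animal ID, whose meaning is not given, so each comparison was also fitted within a letter. Among mice of letter F (tumors 1 to 3, adjacent 1 and 2, wildtype 1), the difference from adjacent tissue was 2.66 for Ano1 (limma adjusted p = 0.0109) and -1.33 for Ldb3 (limma adjusted p = 0.017). There Mylk differed by -0.46 (limma adjusted p = 0.0744), Chrm3 by 0.86 (limma adjusted p = 0.211), Prph by -0.08 (limma adjusted p = 0.845) and Elavl4 by -0.13 (limma adjusted p = 0.592). Among mice of letter B (tumors 4 to 6, adjacent 3 to 5, wildtype 2 and 3), Ano1 differed by 3.47 (limma adjusted p = 3.67e-06), Ldb3 by -1.90 (limma adjusted p = 1.03e-05), Mylk by -1.13 (limma adjusted p = 0.0012) and Chrm3 by 1.50 (limma adjusted p = 5.8e-05). Prph differed by -0.61 (limma adjusted p = 0.00603) and Elavl4 by -0.34 (limma adjusted p = 0.035), and Pgm5 (-1.95, limma adjusted p = 0.0116) and Synpo2 (-1.40, limma adjusted p = 0.0376) passed as well. Tumors 4 and 6 are both of letter B. Against wildtype within letter B, Ano1, Ldb3, Mylk and Chrm3 all passed (3.59, -1.65, -0.91 and 1.60). Letter F has wildtype 1 alone, the array with high gastric pit markers, and differences from it (0.48, -0.51, -0.35 and 0.24) say nothing about the letter. The difference between the letters was not tested.
The acinar signal of wildtype 1, wildtype 3, adjacent 1 and adjacent 2 was addressed both by leaving these arrays out and by keeping only them. Adjacent 1 and 2 are also the only adjacent samples of letter F, and adjacent 3 to 5 are all of letter B. Among adjacent samples, acinar signal and ID letter therefore cannot be told apart. Against adjacent tissue, the acinar and letter fits are not separate checks. Without them, all 6 calls against adjacent tissue stood: Ano1 differed by 3.42 (limma adjusted p = 9.09e-08), Ldb3 by -1.83 (limma adjusted p = 2.52e-06), Mylk by -1.04 (limma adjusted p = 0.000376), Chrm3 by 1.47 (limma adjusted p = 0.000121), Prph by -0.53 (limma adjusted p = 0.0121) and Elavl4 by -0.28 (limma adjusted p = 0.0405). Pgm5 was called lower as well. Against wildtype, where wildtype 2 is then the only array and is assumed to vary like the other groups, Ano1 (3.75, limma adjusted p = 2.28e-05), Ldb3 (-1.67, limma adjusted p = 0.00145), Mylk (-0.97, limma adjusted p = 0.0469) and Chrm3 (1.53, limma adjusted p = 0.0132) passed.
With only those 4 as non-tumor arrays, Ano1 differed from adjacent tissue by 2.72 (limma adjusted p = 0.0113) and Ldb3 by -1.42 (limma adjusted p = 0.00413), while Mylk (-0.57, limma adjusted p = 0.0707), Chrm3 (0.89, limma adjusted p = 0.157), Prph (-0.18, limma adjusted p = 0.653) and Elavl4 (-0.20, limma adjusted p = 0.359) did not pass. Against wildtype under the same restriction, with wildtype 1 and wildtype 3, Ano1 (1.92, limma adjusted p = 0.119), Ldb3 (-1.02, limma adjusted p = 0.0606), Mylk (-0.53, limma adjusted p = 0.185) and Chrm3 (0.93, limma adjusted p = 0.248) did not pass.

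Adjacent tissue was last compared with wildtype duodenum. The adjacent samples come from Lrig1-/- mice that carry a tumor, so genotype and carrying a tumor cannot be told apart. No muscle, interstitial or neural gene passed, and 0% of all genes did (limma); none of the 35 had an unadjusted p under 0.05 either, while 559 genes did. Median differences were -0.11 for muscle, 0.026 for neural genes and -0.0092 over all genes. Ldb3 had the lowest unadjusted p of the 35 genes, with a difference of 0.42 ± 0.24 (SE). The Kit difference was 0.05 ± 0.18 (SE), with a 95% interval from -0.32 to 0.43. For Ano1 it was -0.61 ± 0.56 (SE), with an interval from -1.80 to 0.59 and wildtype 1 far above the other 2 wildtype arrays.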

How the data were processed

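Total RNA of 14 duodenal samples from 9 mice was measured on Affymetrix Mouse Gene 1.0 ST arrays. The deposited values are log2 signal (read from their range, 2.87 to 14.8). Per the submitters' processing notes, the tool was Affymetrix Expression Console 1.1 and the build mm9. For background correction and normalization the sources used here state nothing. Medians per array were 7.11 to 7.29, and no further scaling was applied.

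Of 35556 transcript clusters, 21789 had 1 gene symbol, 1621 several and 12146 none. Symbols were updated through gene identifiers for 21698, and 91 kept the annotation's own. The brightest cluster per gene was used, leaving 19938 genes. Promoter letters come from RefSeq (GRCm38.p6).

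All 14 arrays entered a limma 3.58.1 fit (R 4.3.3) of group means, the mouse being a random block (correlation 0.334), moderated two-sided tests and Benjamini-Hochberg adjustment over all genes at 0.05. All groups share the estimate of spread. The pairing comes from the mouse in the labels. Deviations from group means correlated at 0.251, 0.221, 0.289, -0.030 and 0.395 in the 5 pairs. Replicate numbers follow accession order. Animals are separate mice.

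Members, lists and tests were chosen with earlier results of these data known. The 15 further lists held 191 entries, 12 of them without a gene. All 35 members are described with their values or by counts. Of the other lists, the genes named are among the 4 with the largest change past the threshold. Srf is named besides, after its values were seen. Alternatives were another normalization, array weights, no block, a paired block, a filter on dim genes (log2 7 on at least 3 arrays, which keeps 32 members), single ID letters, arrays with or without acinar transcripts, and each array left out in turn.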

Additional observations from a re-analysis of the deposited data

Results flagged for a closer look

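In groups of 4 to 10 arrays the highest or lowest array was compared with its nearest neighbour relative to the group's range (Dixon's test at 95%). Of 70 groups (35 genes in adjacent and tumor samples), 10 had an array standing apart, where chance gives about 1 in 20, and genes on the same array are not independent.
Adjacent 1 stood apart as the lowest of 5 for 6 muscle genes. It read 10.21 for Actg2 (next lowest 11.26), 9.11 for Myh11 (10.42), 9.79 for Cnn1 (10.80), 11.04 for Myl9 (11.93), 8.40 for Cald1 (8.77) and 8.34 for Synpo2 (9.39). Its mean acinar marker signal was 13.04 and its mean gastric pit signal 8.99, the highest of the adjacent samples for the latter.
Adjacent 2 stood apart as the highest for 3 genes, with 8.83 for Chrm3 (next 7.81), 9.04 for Ano1 (7.67) and 7.51 for Vip (7.03). Its mean acinar marker signal was 14.01. Tumor 4 was the lowest of the 6 tumors for Gfap, at 6.33 (next lowest 6.61). The causes were not tested.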

How the results depend on the processing

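Over 24 alternatives, 14 of which left out an array, 2441 values of the 35 genes were recomputed. None reversed with a call, 40 lost a call, 22 gained 1 and 285 changed sign with no call, Kit in 14 of 24 alternatives against adjacent tissue. In tumor against adjacent tissue Ano1 and Ldb3 passed under every alternative run. Mylk and Chrm3 each lost the call under 2 of 24, Prph under 7 of 24 and Elavl4 under 10 of 23.
Against adjacent tissue, 6313 genes passed. With only the 4 acinar non-tumor arrays 2181 did, and with letter F alone 1719, both with adjacent 1 and 2 as the only adjacent samples. The muscle count of 3 became 5 with array weights (Tpm1 and Pgm5 added) and 5 with letter B alone, and 1 with only acinar arrays or letter F alone. The neural count of 2 became 0 with no block, 0 with only acinar arrays, 0 with letter F alone, and 1 with quantile normalization, the dim filter (which drops Elavl4) or the paired block. Leaving out an array gave 5232 to 6475 genes, 3 to 5 muscle genes and 0 to 3 neural genes.
Against wildtype, 2817 genes passed; array weights gave 9525, only acinar arrays 504 and letter F alone, with wildtype 1 as its only wildtype array, 14. The muscle count of 3 became 5 with array weights and 0 with only acinar arrays or letter F alone. The neural count of 0 became 1 with array weights or letter B alone, in both cases Stmn2. Leaving out an array gave 940 (without wildtype 2) to 4526 (without wildtype 1) genes, 1 to 4 muscle genes and 0 neural genes; without wildtype 3 it was 1090 genes.
For adjacent tissue against wildtype, 0 genes passed; array weights gave 1691, quantile normalization 1, the dim filter 1 and letter F alone 73 (again with 1 wildtype array), and leaving out an array gave 0 to 1 (1 without wildtype 3). Muscle and neural counts stayed at 0 under every alternative run. The causes were not tested beyond the fewer arrays or genes an alternative keeps. The paired block changed no other call among the 35 genes in tumor against adjacent tissue. The number of arrays, chiefly 3 wildtype mice, limits the precision, and 3 members (Elavl4, Tubb3 and Gfap) are too dim to pass the filter.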

Other observations

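Lists of other cell types of the gut wall were counted in tumors against adjacent tissue by a limma adjusted p under 0.05, which 31.7% of all genes passed, 19.1% higher and 12.6% lower. Differences between the lists were not tested, and with 6 to 12 genes a list the shares are coarse. Of 12 fibroblast and matrix genes 7 rose and none fell, with a median difference of 0.38. Postn, a matricellular protein, rose by 1.31 ± 0.38 (SE; limma adjusted p = 0.0162) and Dcn, the proteoglycan decorin, by 0.97 ± 0.18 (SE; limma adjusted p = 0.000647). Of 8 endothelial genes 3 rose, among them Cdh5, the endothelial cadherin, by 0.55 ± 0.15 (SE; limma adjusted p = 0.0126). The share called was 37.5% in the endothelial list, 8.33% in the striated muscle list and 16.7% in the mesothelial list, all higher. Of these, the endothelial share was above the 19.1% of all genes called higher and the others below it. The share called lower was 12.5% in the pericyte list, near the 12.6% of all genes, and 28.6% in the adipocyte list, above it. Of 8 pericyte genes 1 fell (Cspg4), and of 12 striated muscle genes 1 rose (Tnni2, by 0.34 ± 0.10, SE; limma adjusted p = 0.0124). Of 6 mesothelial genes Msln rose by 0.83 ± 0.18 (SE; limma adjusted p = 0.00232), and of 7 adipocyte genes 2 fell, Cidec by 0.89 ± 0.12 (SE; limma adjusted p = 4.39e-05) and Plin4. None of 9 acinar genes passed, and 9 of 10 enterocyte genes fell.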
